A study of Mus musculus with 6 samples.

Results

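The lysyl oxidase family of the mouse comprises *Lox*, *Loxl1*, *Loxl2*, *Loxl3* and *Loxl4*, and its 5 genes were taken by symbol from the 24421 rows of the bulk RNA sequencing matrix of lineage-traced aortic cells. Mice of the 129S6/SvEv strain carried the Cre-dependent *CAG-Sun1/sfGFP* tracer allele, which marks the nuclei of recombined cells with GFP, together with either *Mef2cSHF* Cre for the secondary heart field (SHF) or *Wnt1-Cre2* for the cardiac neural crest (CNC). Tissue of the ascending aorta with the root was taken from mice aged 8 weeks, viable GFP+ cells were isolated by sorting, and amplified RNA was sequenced from 3 SHF and 3 CNC libraries. No other allele or treatment distinguished the groups. The comparison asks whether cells of the 2 embryonic origins differ in transcript level in the same stretch of aorta. Neither Cre is restricted to one cell type, so a library holds every sorted cell type of that lineage. Whether a library came from 1 mouse or from pooled mice is not given in the sources used here. Levels are given as TPM, an estimated transcript abundance that is scaled to gene length and to the total of the library. All 5 genes passed the filter for the test, which asked for 1 TPM or more in 3 or more libraries.

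Lysyl oxidases are secreted, copper-dependent amine oxidases. They convert lysine side chains of elastin and collagens to reactive aldehydes, which then condense into the covalent cross-links that give elastic lamellae and collagen fibers of the aortic wall their strength. LOX and LOXL1 are made with a propeptide that BMP1 and related proteinases remove, whereas LOXL2, LOXL3 and LOXL4 carry scavenger receptor cysteine-rich domains before the catalytic domain. Loss of LOX causes aortic aneurysm and rupture in mice, and LOXL1 is required for elastic fiber renewal in adult tissues.

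The catalytic domain binds copper through a cluster of histidines. The codons of that cluster are shown for 4 of the genes because they encode the shared catalytic feature and bear on whether reads of one member could be counted for another. The sequences are from GENCODE M21 transcripts (GRCm38), read 5′ to 3′ on the coding strand, and each run of 33 bases spans 2 neighboring exons. Capitals mark the 4 histidine codons.
*Loxl1*, chr9:58293720-58294381, minus strand, exons 3 and 4 of 7: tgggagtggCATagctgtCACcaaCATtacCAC
*Loxl2*, chr14:69682316-69689037, plus strand, exons 10 and 11 of 14: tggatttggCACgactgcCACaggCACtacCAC
*Loxl3*, chr6:83049995-83050125, plus strand, exons 10 and 11 of 14: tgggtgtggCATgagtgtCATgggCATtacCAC
*Loxl4*, chr19:42598807-42599899, minus strand, exons 11 and 12 of 15: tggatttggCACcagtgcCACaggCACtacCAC
Over these bases *Lox* and *Loxl1* were identical at 32 of 33 positions and *Loxl2* and *Loxl4* at 31 of 33, while *Lox* and *Loxl4* shared 22 of 33. The longest uninterrupted run shared by the coding sequences of a pair of members was 32 bases, for *Lox* and *Loxl1*, and for the other 9 pairs it ran from 11 to 28 bases.

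Overlap with other genes added one further limit. *Lox* lies on chromosome 18 of GRCm38 from 52516067 to 52529867, *Loxl1* on chromosome 9 from 58287738 to 58313186, *Loxl2* on chromosome 14 from 69609068 to 69695834, *Loxl3* on chromosome 6 from 83034173 to 83052562 and *Loxl4* on chromosome 19 from 42593982 to 42612813, all protein-coding. Exons of *Loxl3* overlap those of *Htra2*, a mitochondrial serine protease gene on the opposite strand, over 535 of 4603 exonic bases, so reads there could belong to either gene. *Loxl2* shares 308 of 5405 exonic bases with an antisense transcript and a microRNA, *Lox* shares 30 of 4778 with an antisense transcript, and *Loxl1* and *Loxl4* share none.

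Transcripts of all 5 members were detected in every library, and *Loxl1* and *Lox* made up most of them. *Loxl1* averaged 412 TPM over the 6 libraries and ranked 384 by mean level among the 24421 rows, and *Lox* averaged 278 TPM and ranked 556. *Loxl3* and *Loxl2* averaged 50.7 and 50.6 TPM, and *Loxl4* averaged 3.12 TPM. Within a library *Loxl1* exceeded *Lox* in 5 of 6 libraries, with a mean difference of 0.89 on log2(TPM + 1) that was smaller than its spread (SD 0.98, n = 6). The one exception was CNC replicate 3. *Lox* exceeded *Loxl3* in 6 of 6 libraries (2.23 ± 0.81 on the same log2 scale, SD, n = 6), and it exceeded *Loxl2* in 5 of 6, SHF replicate 3 being the exception. *Loxl2* and *Loxl3* could not be ordered, since each was the higher in 3 libraries and their mean difference was -0.12 ± 1.51 (SD, n = 6). *Loxl4* was lowest in 6 of 6 libraries, 3.54 ± 0.89 below *Loxl2* (log2 scale, SD, n = 6).

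**Figure D1:**
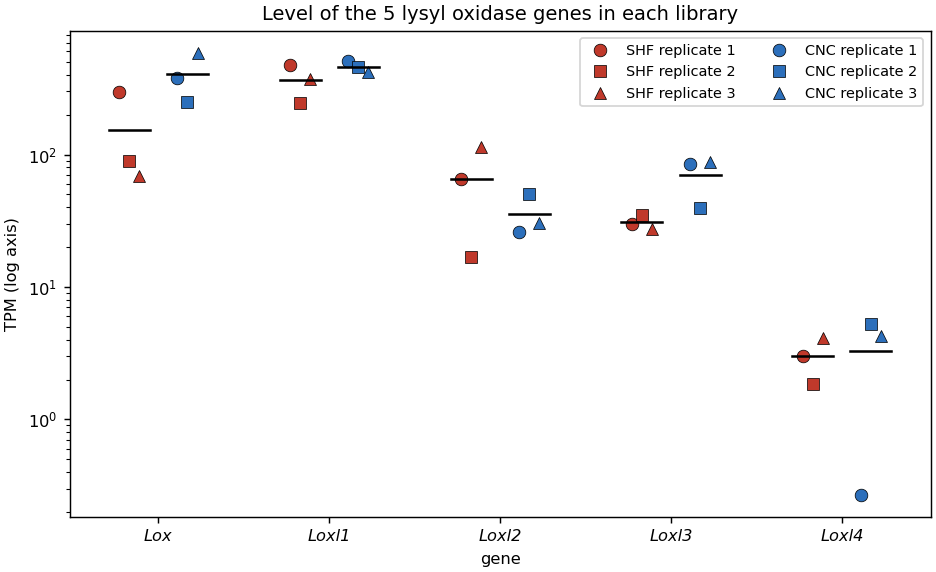
Level of each lysyl oxidase gene in TPM on a log axis, with a point for each of the 3 SHF (red) and 3 CNC (blue) libraries and a black line at the mean of each lineage. The SHF and CNC points overlap for *Lox*, *Loxl1*, *Loxl2* and *Loxl4* and are apart for *Loxl3*, at 27.4 to 35.2 TPM in SHF and 39.5 to 87.7 TPM in CNC libraries.

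*Lox*, the founding member and the one whose loss ruptures the aorta, was on average lower in SHF than in CNC libraries. Its level was 299, 89.1 and 68.3 TPM across SHF replicates 1, 2 and 3 and 379, 250 and 581 TPM across CNC replicates 1, 2 and 3. The lineages overlapped, because SHF replicate 1 lay above CNC replicate 2, and the other 2 SHF libraries were below all CNC libraries. The means were 152 ± 128 TPM in SHF and 403 ± 167 TPM in CNC libraries (SD, n = 3 each). In limma on log2(TPM + 1) over the 10185 genes that passed the filter, the fold change, SHF minus CNC, was -1.63 (SE 0.54, 95% confidence interval -2.83 to -0.43), with an unadjusted p of 0.0122 and an adjusted p of 0.688. *Lox* was the only member with an unadjusted p under 0.05, a level that 5.86% of all genes tested reached (3.17% with CNC higher and 2.69% with SHF higher), and it did not pass the threshold of 0.05 after adjustment. Sex-linked transcripts differed along with *Lox*. *Xist*, the RNA of the inactive X chromosome, reached 52.0 and 38.8 TPM in SHF replicates 2 and 3, the libraries with the least *Lox*, and was listed at 0 in the other 4. The Y-linked *Ddx3y* was above 0 in exactly those 4 libraries, which held all *Lox* values from 250 TPM upward. Within them the log2 fold change of *Lox* was -0.35, with SHF replicate 1 as the lone SHF library, against -2.27 when SHF replicate 1 was left out. *Xist* was detected in no CNC library, so for *Lox* lineage and sex cannot be told apart.

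*Loxl1*, the member most closely tied to elastic fibers, varied least. It was at 474, 245 and 373 TPM across SHF replicates 1, 2 and 3 and at 506, 457 and 418 TPM across the CNC libraries. SHF replicate 1 lay within the CNC range and the other 2 SHF libraries below it. The highest of the 6 values was 2.07 times the lowest, against 8.51 times for *Lox*. The log2 fold change was -0.38 (SE 0.32, 95% confidence interval -1.09 to 0.32, adjusted p = 0.891 in limma). It was -0.60 without SHF replicate 1 and -0.13 without SHF replicate 2, and in the 4 libraries with *Ddx3y* it was 0.046.

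*Loxl3*, which is needed for palate and spine development, was the one member whose lineages did not overlap. Levels of 29.7, 35.2 and 27.4 TPM across SHF replicates 1, 2 and 3 were all below the 84.5, 39.5 and 87.7 TPM of CNC replicates 1, 2 and 3. CNC replicate 2 was close to the SHF libraries and the other 2 CNC libraries lay well above. The log2 fold change was -1.09 (SE 0.60, 95% confidence interval -2.40 to 0.22), the adjusted p in limma was 0.874, and the exact two-sided permutation p was 0.1, the smallest that 3 libraries against 3 can give. Of all genes tested, 11.8% had lineages that did not overlap, 5.68% with CNC higher and 6.11% with SHF higher, and the count of 1 in a family of 5 is to be read against that share. *Loxl3* was at 29.7 TPM in SHF replicate 1, between the 2 libraries with *Xist*. Among the 4 libraries with *Ddx3y*, a division made after the data were seen that leaves 1 SHF library, its log2 fold change was -1.13, and the part of sex in the *Loxl3* level was not tested. *Htra2*, whose exons overlap those of *Loxl3*, was at 29.0, 92.6 and 8.72 TPM across the SHF libraries and 23.4, 42.6 and 71.5 TPM across the CNC libraries, and the lineages overlapped. How reads over the shared bases were divided between the 2 genes was not tested.

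*Loxl2*, which oxidizes collagen IV in basement membranes, had its highest and its lowest level in SHF libraries. It was at 65.2, 16.8 and 115 TPM across SHF replicates 1, 2 and 3 and at 26.2, 50.0 and 30.6 TPM across CNC replicates 1, 2 and 3. All CNC libraries lay between the extremes of the SHF libraries. The log2 fold change was 0.55 (SE 0.77, 95% confidence interval -1.14 to 2.23, adjusted p = 0.924 in limma), and it fell to -0.039 without SHF replicate 3. *Loxl4*, at 3.00, 1.84 and 4.12 TPM across the SHF libraries and 0.27, 5.21 and 4.29 TPM across the CNC libraries, had a log2 fold change of 0.16 with a wide interval (95% confidence interval -2.30 to 2.62). Its direction turned without CNC replicate 1, to -0.56, and without SHF replicate 3, to -0.041. None of the 5 members passed the adjusted threshold in either direction, which 0.0% of all genes tested did. None was exclusive to a lineage, taken here as more than 5 TPM throughout one lineage and 0 throughout the other, a pattern met by 0.139% of the rows of the matrix.

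*Lox* and *Loxl1* together held 75.1% to 89.1% of the family's transcripts in each library. The summed level of the 5 genes was 871, 388 and 588 TPM across SHF replicates 1, 2 and 3 and 996, 801 and 1122 TPM across the CNC libraries. SHF replicate 1 fell between CNC replicates 2 and 1, so the lineages overlapped. *Lox* contributed 23.0% ± 11.4 of the sum in SHF and 40.3% ± 10.5 in CNC libraries, and *Loxl1* 60.4% ± 5.15 and 48.4% ± 10.1 (SD, n = 3 each). The difference of 12.0 percentage points for *Loxl1* was 6.44 without CNC replicate 3. The share of the pair was lowest in SHF replicate 3, where *Loxl2* held 19.5% against 2.63% to 7.49% in the other 5 libraries. *Loxl3* held 3.41% to 9.06% and *Loxl4* at most 0.701%. No test was made on these sums and shares.

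**Figure D2:**
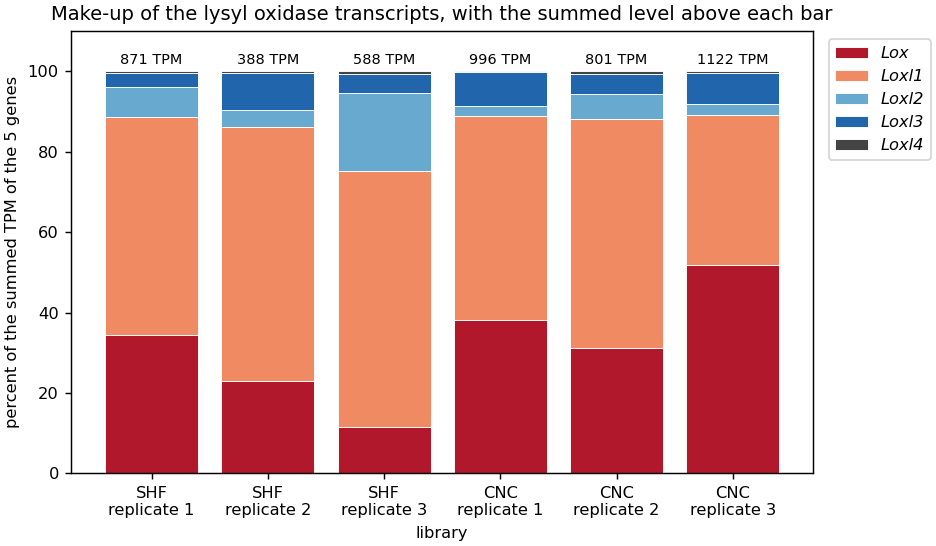
Percent of the summed TPM of the 5 genes contributed by each gene, 1 stacked bar per library, with the summed level in TPM printed above the bar. *Loxl1* is the largest part except in CNC replicate 3, where *Lox* holds 51.8%, and the *Lox* part is smallest in SHF replicate 3, at 11.6%.

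Ratios within a library do not depend on how libraries are scaled, apart from the pseudocount. The log2 ratio of *Lox* to *Loxl1* was -0.66, -1.45 and -2.43 across SHF replicates 1, 2 and 3 and -0.42, -0.87 and 0.47 across the CNC libraries. CNC replicate 2 lay below SHF replicate 1, and the exact two-sided permutation p was 0.2, or 0.3 after adjustment over the 3 ratios computed. *Eln* encodes tropoelastin, a substrate of both enzymes. The log2 ratio of *Lox* to *Eln* was -2.55 ± 0.51 in SHF and -2.75 ± 0.79 in CNC libraries (SD, n = 3 each), a difference of 0.19 that was smaller than either spread (exact two-sided permutation p = 0.7). The ratio of *Loxl1* to *Eln* was -1.04 ± 0.74 and -2.48 ± 1.08 (SD, n = 3 each), with SHF replicate 1 below CNC replicate 2 (exact two-sided permutation p = 0.2, adjusted 0.3).

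Levels of cell type markers differed between libraries, and fewer cells of a type cannot be told apart in bulk RNA from less RNA per cell. All 12 smooth muscle markers and all 10 fibroblast markers passed the filter. Summed smooth muscle markers, led by *Myl9* and *Acta2*, ran from 1547 to 3270 TPM in SHF and from 1425 to 2167 TPM in CNC libraries, and summed fibroblast markers, led by *Gsn* and *Dcn*, from 34070 to 51064 and from 37948 to 49520 TPM. The fibroblast sum rests mostly on *Gsn* and *Dcn*, and 4 of the 10 fibroblast markers did not overlap, all with CNC higher as for *Loxl3* and *Col1a1*, against 5.68% of all genes tested. The other 6 overlapped, among them *Gsn*, *Dcn* and *Dpt*, the last with means of 553 ± 192 and 550 ± 98.0 TPM (SD, n = 3 each). For the 4, means in SHF and CNC libraries were 686 ± 306 and 1518 ± 386 TPM for *Pi16*, 152 ± 91.4 and 384 ± 106 TPM for *Clec3b*, 873 ± 185 and 1994 ± 390 TPM for *Ly6a* and 951 ± 134 and 1400 ± 186 TPM for *Serpinf1* (SD, n = 3 each). The part of these cells in the *Loxl3* and collagen levels was not tested. Of 9 endothelial markers, 5 were listed at 0 in all CNC libraries, in which 9653 to 11334 of the 24421 rows were above 0. Lineages did not overlap for 4 of the 9, all with SHF higher, against 6.11% of all genes tested. Only 6 of the 9 passed the filter for the test. The sum of the 9, led by *Pecam1* and *Emcn*, was 82.8 to 581 TPM in SHF and 22.9 to 60.96 TPM in CNC libraries. The 8 cardiomyocyte markers, with *Tnnt2* and *Actc1* the highest, summed to 87.4 to 116 TPM in SHF and 0 to 37.9 TPM in CNC libraries. *Tnnt2* was at 21.5, 87.4 and 60.9 TPM across the SHF libraries, at 22.1 TPM in CNC replicate 1 and at 0 in the other 2 CNC libraries. *Actc1* was above 0 in SHF replicates 1 and 3 (42.1 and 28.2 TPM) and no CNC library, and the atrial *Myl7* in none of the 6. Leukocyte markers (8 genes, led by *C1qb* and *Lyz2*) summed to 0 to 34.5 and 7.96 to 270 TPM, and adipocyte markers (6 genes, led by *Fabp4* and *Pparg*) to 30.8 to 69.9 and 24.4 to 47.5 TPM. *Ptprc* and *Adipoq* were at 0 in all 6 libraries. Summed endothelial markers were highest in SHF replicates 2 and 3, where *Lox* was lowest, but single markers did not all follow the sum. *Tek* read 31.6, 0 and 57.25 TPM across the SHF libraries and 36.7, 23.1 and 1.11 TPM across the CNC libraries. *Kdr* read 1.9, 0 and 32.2 TPM against 14.4, 0 and 0 TPM. The part of endothelial cells in the *Lox* and *Loxl2* levels was not tested.

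The genes on which lysyl oxidases depend were examined in 6 lists of 45 genes in all. None of the listed genes passed the adjusted threshold in either direction. The median log2 fold change over all genes tested was 0.02, against -0.38 for the 5 members. Proteins that activate or localize the enzymes had a median of -0.39 over 8 tested genes of 11, or -0.62 to -0.20 with single libraries left out (-0.20 without CNC replicate 1 and -0.62 without CNC replicate 2). Among them *Bmp1*, the proteinase that removes the LOX propeptide, was at 154, 207 and 147 TPM across SHF replicates 1, 2 and 3 and 183, 170 and 110 TPM across the CNC libraries, with a log2 fold change of 0.15 (95% confidence interval -0.69 to 0.99). The BMP1-like *Tll1* and *Tll2* were at 0 in all 6 libraries. *Pcolce*, an enhancer of procollagen processing, read 2194, 1395 and 1399 TPM for the SHF libraries and 2387, 1867 and 2452 TPM for the CNC libraries. Its relative *Pcolce2* read 377, 335 and 631 TPM against 741, 969 and 637 TPM, and *Postn*, which brings BMP1 to fibronectin, 611, 644 and 307 TPM against 314, 414 and 241 TPM. *Pcolce* and *Pcolce2* had log2 fold changes of -0.45 and -0.84, and *Postn* of 0.65 (adjusted p of 0.771 or more in limma for the 3). *Postn* ran from 0.45 to 0.99 with single libraries left out, and *Pcolce* was at -0.016 in the 4 libraries with *Ddx3y*. Lineages did not overlap for 3 of the 8, *Pcolce2*, *Fmod* and *Thbs1*, against 11.8% of all genes tested. *Fmod* encodes fibromodulin, a collagen-binding proteoglycan that directs LOX to collagen, and stood at 118, 240 and 162 TPM across the SHF libraries and 514, 448 and 1016 TPM across the CNC libraries (log2 fold change -1.89, SE 0.40, adjusted p = 0.475 in limma). *Thbs1*, thrombospondin-1, ran in the other direction, at 504, 545 and 98.7 TPM against 66.02, 76.3 and 49.5 TPM (log2 fold change 2.24, SE 0.61, adjusted p = 0.548 in limma).

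Substrates were on average lower in SHF libraries. All 7 tested collagen genes had a negative log2 fold change, from -1.26 to -0.54 with a median of -0.66, and lineages did not overlap for 4 of the 7, *Col1a1*, *Col1a2*, *Col3a1* and *Col5a2*, all with CNC higher, against 5.68% of all genes tested. *Col1a1*, the main chain of collagen I, was at 4541, 4005 and 4396 TPM across SHF replicates 1, 2 and 3 and at 11792, 7322 and 12778 TPM across CNC replicates 1, 2 and 3. Its log2 fold change was -1.26 (SE 0.24, unadjusted p = 0.00026, adjusted p = 0.465 in limma). Its partner chain *Col1a2* read 1951, 1657 and 1876 TPM for the SHF libraries and 4112, 2843 and 4925 TPM for the CNC libraries (log2 fold change -1.08). *Col3a1*, of collagen III, read 8546, 6770 and 8644 TPM against 17544, 9250 and 16138 TPM (-0.80). CNC replicate 2 was the lowest CNC library for all 3 of these genes, as it was for *Loxl3*. In the 4 libraries with *Ddx3y* the median over the list was -0.31, while *Col1a1*, *Col1a2* and *Col3a1* were at -1.19, -0.98 and -0.69. Of 9 tested genes for elastic fiber assembly, 6 had a negative value, and the median was -0.37, or -0.078 without CNC replicate 1. *Eln* was at 1758, 370 and 581 TPM across the SHF libraries and 4711, 1081 and 3297 TPM across the CNC libraries, with a log2 fold change of -1.82 (SE 0.60, adjusted p = 0.688 in limma). As for *Lox*, SHF replicate 1 lay above CNC replicate 2 and the other 2 SHF libraries were the lowest of the 6, and in the 4 libraries with *Ddx3y* the log2 fold change of *Eln* was -0.54. For *Eln*, too, lineage and sex cannot be told apart. Of the microfibril-associated glycoproteins, *Mfap4* read 2541, 2529 and 2655 TPM for the SHF libraries and 5226, 1836 and 4023 TPM for the CNC libraries, and *Mfap5* 2076, 1343 and 1227 TPM against 2917, 2129 and 2083 TPM. They had log2 fold changes of -0.39 (-0.078 without CNC replicate 1) and -0.64 (-0.18 in the libraries with *Ddx3y*), and lineages did not overlap for 3 of the 9 genes, *Mfap5*, *Fbln5* and *Efemp2*, all with CNC higher (5.68% of all genes tested).

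Other lists covered the enzymes that prepare the lysines and the proteins that supply the copper. Among the 5 lysyl hydroxylation genes the median log2 fold change was -0.043, but -0.28 without SHF replicate 1 and 0.22 without SHF replicate 3, with *Fkbp10*, a collagen chaperone, at -0.19, the hydroxylase *Plod3* at 0.11 and *Plod2* at 0.77 (-0.14 and 0.44 without CNC replicate 2), and lineages overlapped for all 5. *Fkbp10* read 236, 159 and 234 TPM for the SHF libraries and 299, 171 and 252 TPM for the CNC libraries, *Plod3* 127, 91.3 and 84.5 TPM against 163, 65.2 and 73.2 TPM, and *Plod2* 75.95, 119 and 120 TPM against 85.2, 37.5 and 66.9 TPM. The copper transporter *Atp7a*, which loads lysyl oxidases in the secretory pathway, was low, at 19.4, 18.8 and 12.4 TPM across the SHF libraries and 0, 3.61 and 4.57 TPM across the CNC libraries, with lineages apart (log2 fold change 2.57, SE 1.26, adjusted p = 0.874 in limma). *Ccs*, the copper chaperone of superoxide dismutase, was also apart, at 72.2, 40.7 and 111 TPM against 3.02, 34.8 and 23.8 TPM (log2 fold change 2.20, or 1.23 without CNC replicate 1). These 2 of 5 tested copper genes compare with 6.11% of all genes tested that were apart with SHF higher. *Atox1*, the chaperone that hands copper to ATP7A, read 272, 251 and 195 TPM against 325, 201 and 164 TPM (log2 fold change 0.10, or -0.11 to 0.38 with single libraries left out). *Slc31a1*, the importer CTR1, read 42.8 and 34.3 TPM in SHF replicates 1 and 2 and 0 TPM in SHF replicate 3, against 31.0, 9.34 and 29.5 TPM for the CNC libraries (log2 fold change -0.90, 95% confidence interval -4.10 to 2.30). Of the other amine oxidases, the copper-dependent *Aoc3* read 7.87, 5.36 and 7.05 TPM against 2.35, 11.0 and 2.34 TPM (log2 fold change 0.59, or 0.28 without CNC replicate 1 or 3 and 1.2 without CNC replicate 2), and *Aoc1* was at 0 in all 6 libraries. The flavin enzyme *Maob* was at 62.1, 63.1 and 49.3 TPM across SHF replicates 1, 2 and 3 and 8.72, 32.9 and 32.5 TPM across the CNC libraries, and *Maoa* read 16.9, 1.96 and 17.5 TPM against 2.29, 2.02 and 1.98 TPM. *Maob* was the 1 gene of the 3 tested in this list that was apart, with SHF higher, against 6.11% of all genes tested. *Maoa* overlapped. The log2 fold change was 1.4 for *Maob*, or 0.80 without CNC replicate 1, and 1.68 for *Maoa*, or 2.56 without SHF replicate 2 (adjusted p of 0.874 or more in limma).

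**Figure D3:**
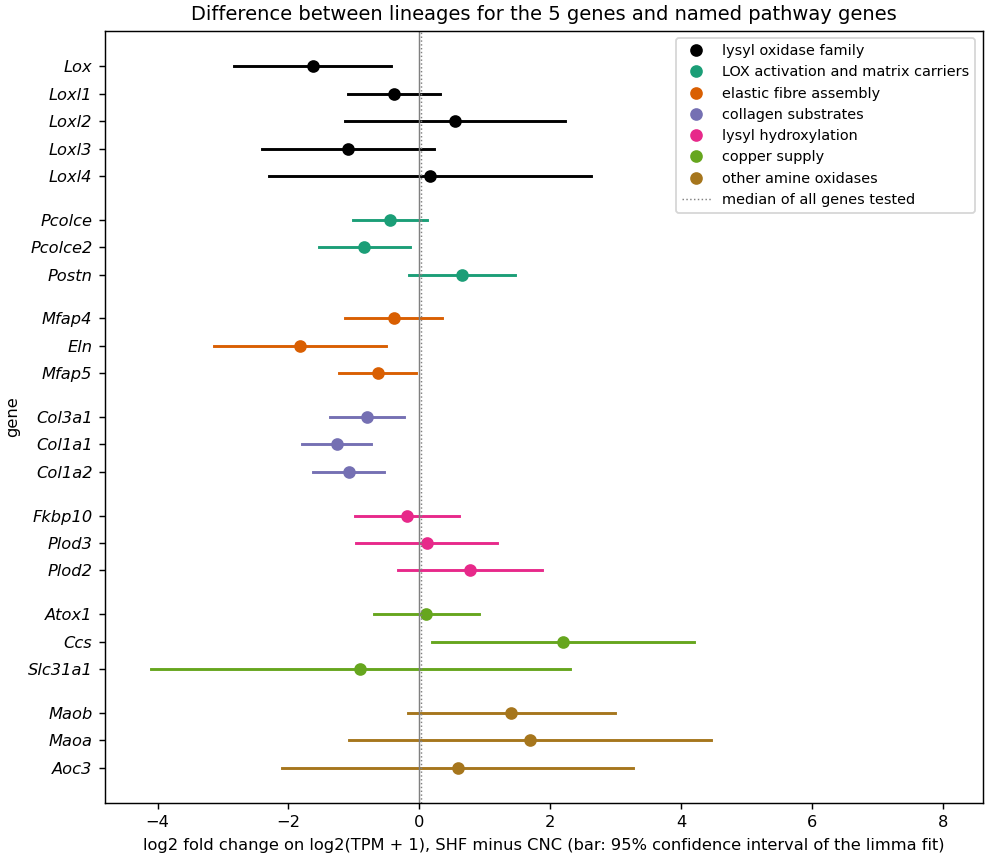
Log2 fold change on log2(TPM + 1), SHF minus CNC, for the 5 lysyl oxidase genes and the 3 most abundant genes of each pathway list, with bars for the 95% confidence interval of the limma fit, not adjusted for the number of genes. The solid line is at 0 and the dotted line at the median of all genes tested, 0.02. The intervals of *Lox* (-2.83 to -0.43), *Eln*, *Pcolce2*, *Mfap5*, *Col3a1*, *Col1a1* and *Col1a2* lie below 0 and that of *Ccs* above it, and none of the plotted genes passed the adjusted threshold.

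The genes whose levels followed each member most closely were found by the mean absolute difference of log2(TPM + 1), after the mean of each gene over the 6 libraries was removed. For *Lox* these were *Amz2*, a metalloprotease-like gene, at 0.13, *Ppip5k2*, an inositol pyrophosphate kinase, at 0.32 and *Thy1*, a surface protein of fibroblasts, also at 0.32. *Amz2* was far less abundant than *Lox*, at 37.2, 9.88 and 5.82 TPM across SHF replicates 1, 2 and 3 and 37.4, 29.1 and 63.2 TPM across the CNC libraries. The gene nearest to *Loxl3* was *Col1a1*, at 0.15, followed by *Abcc9*, a subunit of potassium channels, at 0.16 and *Ltbp1*, which binds latent TGF-β, at 0.19. *Abcc9* was at 73.5, 82.5 and 66.7 TPM across the SHF libraries and 192, 138 and 194 TPM across the CNC libraries. *Loxl1* was nearest to *Pfdn2*, *Stub1* and *Ubb*, a prefoldin subunit, a ubiquitin ligase and a ubiquitin gene, at 0.091 to 0.11. *Loxl2* was nearest to *Rcc1*, *Rnf2* and *Slc20a1*, at 0.25 to 0.29, and *Loxl4* to *Sel1l*, *Cant1* and *Ppp2ca*, at 0.16 to 0.19. These genes were picked from between 3978 and 7135 candidates for each member and over 6 libraries, and the values are a description.

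**Figure D4:**
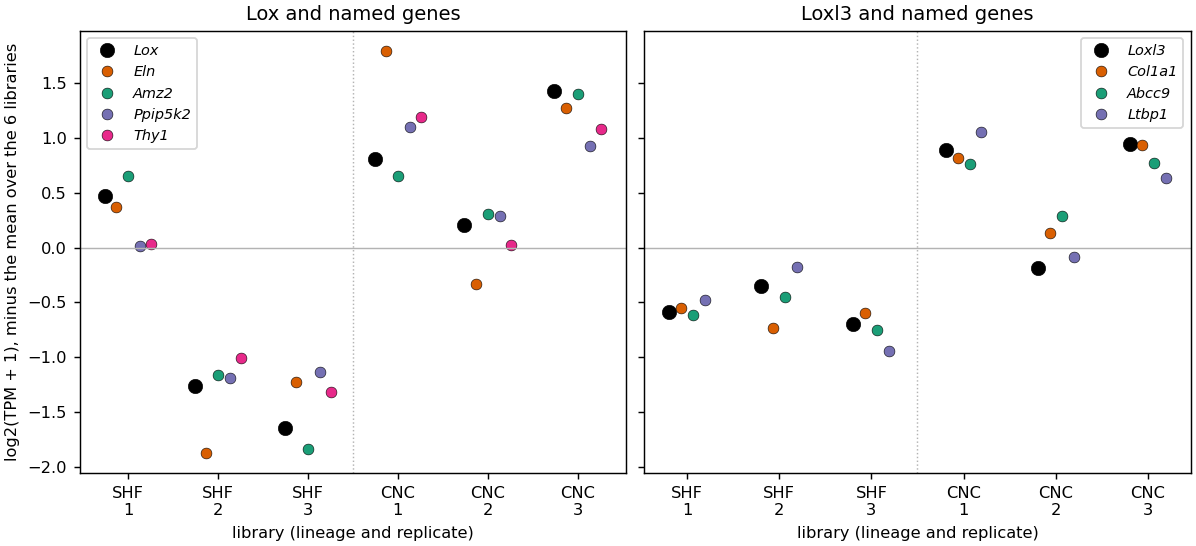
Values of log2(TPM + 1) minus the mean of each gene over the 6 libraries, for *Lox* with *Eln* and its 3 nearest genes (left) and for *Loxl3* with its 3 nearest genes (right), 1 column of points per library. In the left panel SHF replicates 2 and 3 are lowest for all 5 genes, and SHF replicate 1 is above the lowest CNC library except for *Ppip5k2*, whereas in the right panel all 3 SHF libraries are below the CNC libraries for each gene.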

How the data were processed

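RNA was taken from sorted GFP+ cells of 3 SHF and 3 CNC libraries and amplified by SmartSeq2. The authors used bowtie2 and RSEM 1.2.25 with mm10 to estimate abundance, and deposited TPM, 1 column per library, without pooling. The gene annotation is not given in the sources used here. TPM keeps no depth, so no counting interval or detection limit is given. Between 9255 and 11858 genes per library were above 0 TPM. The study calls the libraries biological replicates, the labels do not tie them to single mice, and p-values measure the spread between these 6 libraries.

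Differences on log2(TPM + 1), a scale that understates changes of low genes, were fitted in limma 3.58.1 (R 4.3.3, trended eBayes) for the 10185 genes that reached 1 TPM in 3 or more libraries, with Benjamini-Hochberg adjustment. By this fit 0 genes passed 0.05 and 597 had an unadjusted p under 0.05. The code of the fit was run on simulated data, where most of the changes put in were not called. A gene short of the threshold may therefore still differ. Genes and lists were chosen with earlier results of these data known. Named were the members, the 3 most abundant genes of each pathway list, the 2 most abundant markers of each cell type (1 marker list is not reported here), and the 3 genes nearest to each member (mean of 10 TPM or more, SD at least 0.8 of the member's). *Bmp1*, *Tll1*, *Tll2*, *Fmod*, *Thbs1*, *Fbln5*, *Efemp2*, *Col5a2*, *Pi16*, *Clec3b*, *Ly6a*, *Serpinf1*, *Atp7a*, *Aoc1*, *Htra2*, *Xist*, *Ddx3y*, *Ptprc*, *Myl7*, *Dpt*, *Tek*, *Kdr* and *Adipoq* were named after their values were seen. Python 3.11.15 and pandas 2.3.3 were used. Alternatives were other pseudocounts, filters, scalings and fits, a replicate block and each library left out.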

Additional observations from a re-analysis of the deposited data

How the results depend on the processing

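No member passed the threshold under any alternative. *Lox* and *Loxl3* kept their direction in all 16 alternatives, with log2 fold changes from -2.27 to -0.35 and from -1.46 to -0.90 and lowest adjusted p-values in limma of 0.517 and 0.694. The other filters, the eBayes fit without a trend and the replicate block cannot change a log2 fold change, so the direction under them was fixed in advance. With a pseudocount of 5, 1 gene of the matrix passed (*Gm13305*), *Loxl4* was at -0.0008, and the mean log2 difference fell to 5.68 between *Loxl1* and *Loxl4* and to 2.58 between *Loxl2* and *Loxl4*, since a larger pseudocount compresses low genes. With library weights *Loxl4* was at -0.011. *Loxl4* has no value under the filter of a mean of 10 TPM. With single libraries left out in turn, log2 fold changes ran from -0.60 to -0.13 for *Loxl1*, -0.039 to 1.31 for *Loxl2*, -0.56 to 0.58 for *Loxl4*, -0.41 to 0.0007 for *Fkbp10*, -0.14 to 0.52 for *Plod3*, -0.11 to 0.38 for *Atox1*, -1.86 to 0.86 for *Slc31a1* and -0.83 to -0.078 for *Mfap4*, the elastic fiber median from -0.49 to -0.078, and the difference in the log2 ratio of *Lox* to *Eln* from -0.25 to 0.51. The fit on the 4 libraries with *Ddx3y* was added after the data were seen and takes the lone SHF library to vary like the CNC libraries. It called 1 gene (*Rps27rt*) and gave 0.046 for *Loxl1*, -0.54 for *Eln*, -0.18 for *Mfap5*, 0.0055 for *Fkbp10*, 1.02 for *Slc31a1* and a median of -0.31 for the collagens, where the median of all genes was 0.21. Replicate numbers did not pair the libraries (correlations of deviations -0.011, -0.004 and -0.011), and with a replicate block 0 genes passed, with 549 at an unadjusted p under 0.05. The causes were not tested. Unknown depth limits what can be said of *Loxl4*.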
